A study of Rattus norvegicus with 294 samples.

Results

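Osteocytes were cut by laser from the lumbar spine of ovariectomized rats and compared after 183 days of sclerostin antibody or vehicle. They were the arrays whose labels give the cell type osteocyte and the time point 183 days, and they numbered 15 of the 294 arrays of the series, with 5 in each of the groups given 3 mg/kg, 50 mg/kg or vehicle. Each dose was compared with vehicle on its own, across all genes that could be tested. The study collected osteocytes, osteoblasts and lining cells from the same kind of animal at several times during and after treatment.

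All 3 groups were female Sprague-Dawley rats that had been ovariectomized at 6 months of age and left untreated for 8 weeks before dosing. The first group received 3 mg/kg of a sclerostin antibody (Scl-Ab) subcutaneously once a week, the second received 50 mg/kg by the same schedule, and the third received the vehicle alone. The antibody had been engineered to be less immunogenic in rats. Every animal, vehicle rats included, had also been injected with calcein at 10 mg/kg, a dye that labels newly mineralizing bone, 13 and 3 days before it was killed. Cells were cut by laser from frozen sections of the third lumbar vertebra, 4 to 6 µm thick, of the first 5 animals of each group. RNA of 1.5 ng was amplified before it was hybridized to Affymetrix rat arrays, which carry several short probes per transcript. No ovary-intact group entered these comparisons, so all values describe estrogen-deficient animals. The labels do not name the rat behind an array, so captures of different cell types could not be paired by animal. Replicate numbers below follow the order of the arrays in the series. They are not labels of the study, and equal numbers in different groups do not link arrays.

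Osteocytes are former osteoblasts that became buried in the mineralized matrix they made. They stay connected to one another and to the bone surface through long dendrites. Sclerostin, the product of Sost, is secreted mainly by osteocytes and binds the co-receptors Lrp5 and Lrp6, which blocks canonical Wnt signalling through β-catenin and the TCF/LEF transcription factors. An antibody that neutralizes sclerostin releases this block and is known to raise bone formation and lower bone resorption.

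In vehicle rats, 6 of the 17 tested osteocyte markers (Dmp1, Mepe, Gja1, Fgfr1, Lrp4 and Slit2) were higher in all 5 osteocyte arrays than in any osteoblast or lining-cell array of the same day. Dmp1, a matrix protein needed for osteocyte maturation, had a log2 signal of 9.88 ± 0.45 in osteocytes (SD, n = 5), against means of 7.25 in osteoblasts and 6.89 in lining cells. Mepe, a matrix phosphoglycoprotein of osteocytes, had 9.99 ± 0.34 in osteocytes (SD, n = 5), against 6.09 in osteoblasts and 6.63 in lining cells. The cell types are not on one scale, since the median log2 signal of a vehicle array was 3.05 to 3.12 in osteocytes, 3.68 to 3.71 in osteoblasts and 3.31 to 3.34 in lining cells. Levels set across them, those of Dmp1 and Mepe included, carry this offset, which runs against osteocytes. Sost had a log2 signal of 3.02 ± 0.09 in osteocytes, near the median of those arrays. It had 2.98 in osteoblasts and 2.85 in lining cells, below the medians there. A signal at or below the median says little about the transcript, and Sost was not used as a test of the label.

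The 15 arrays correlated with one another between 0.937 and 0.986, and 0 pairs held identical values. The signal range of an array, from its median to its 90th percentile on the log2 scale, was 2.65 to 2.82 at 3 mg/kg, 2.67 to 2.86 at 50 mg/kg and 2.46 to 2.77 with vehicle. The difference from vehicle did not pass a two-sided exact permutation test at 3 mg/kg (p = 0.238) or at 50 mg/kg (p = 0.111), where the smallest p possible was 0.00794. Of 14217 genes on the array list, 11860 had signal above the array median in at least 5 osteocyte arrays and were tested. All differences below are on the log2 scale, so that 1 is a doubling, and a gene is said to have risen or fallen where its Benjamini-Hochberg adjusted p from limma was below 0.05 over all tested genes.

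Osteocytes showed 767 changed genes at 50 mg/kg against vehicle, or 6.47% of those tested. Of these 593 rose (5.00% of tested genes) and 174 fell (1.47%), and 205 of the rises were at least a doubling, against 20 of the falls at least a halving. The genes that rose included osteocyte and matrix genes, Wnt target genes, members of the TGF-β and BMP pathway and genes of the hypoxia and glycolysis list. Endothelial markers were also among those that rose. Cell-cycle genes and osteoclast markers were among those that fell. Immune-cell genes went both ways, with Ighvl1 and Epx lower and Mrc1, Adgre1, Cd74 and Gzmb higher. The median change over all tested genes was 0.002. The count was 1651 with arrays weighted by quality and 1396 when only the 15 arrays were fitted, and rises made up 77.3% of calls but 59.3% after quantile normalization or with signal range as a covariate. In bulk RNA from captured cells, fewer cells of a type and less RNA per cell cannot be told apart, and this holds for every value below.

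The lower dose gave 0 genes that passed against vehicle (0% of tested genes). An unadjusted p below 0.05 was reached by 550, no more than that threshold gives by chance where no gene changes. The smallest adjusted p was 0.119 by limma. Leaving out vehicle replicate 1 gave 4 genes, and leaving out vehicle replicate 2 or 3 mg/kg replicate 4 gave 1 gene each. Array weights gave 13, quantile normalization 3 and the 15 arrays alone 1. All 5 arrays at 3 mg/kg lay above all 5 vehicle arrays for 115 genes (0.970%) and below them for 60 (0.506%). At 50 mg/kg these numbers were 817 (6.89%) and 316 (2.66%), and they held 481 of the 593 genes that rose and 102 of the 174 that fell. Both doses were set against the same 5 vehicle arrays, so their results are not independent.

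**Figure D1:**
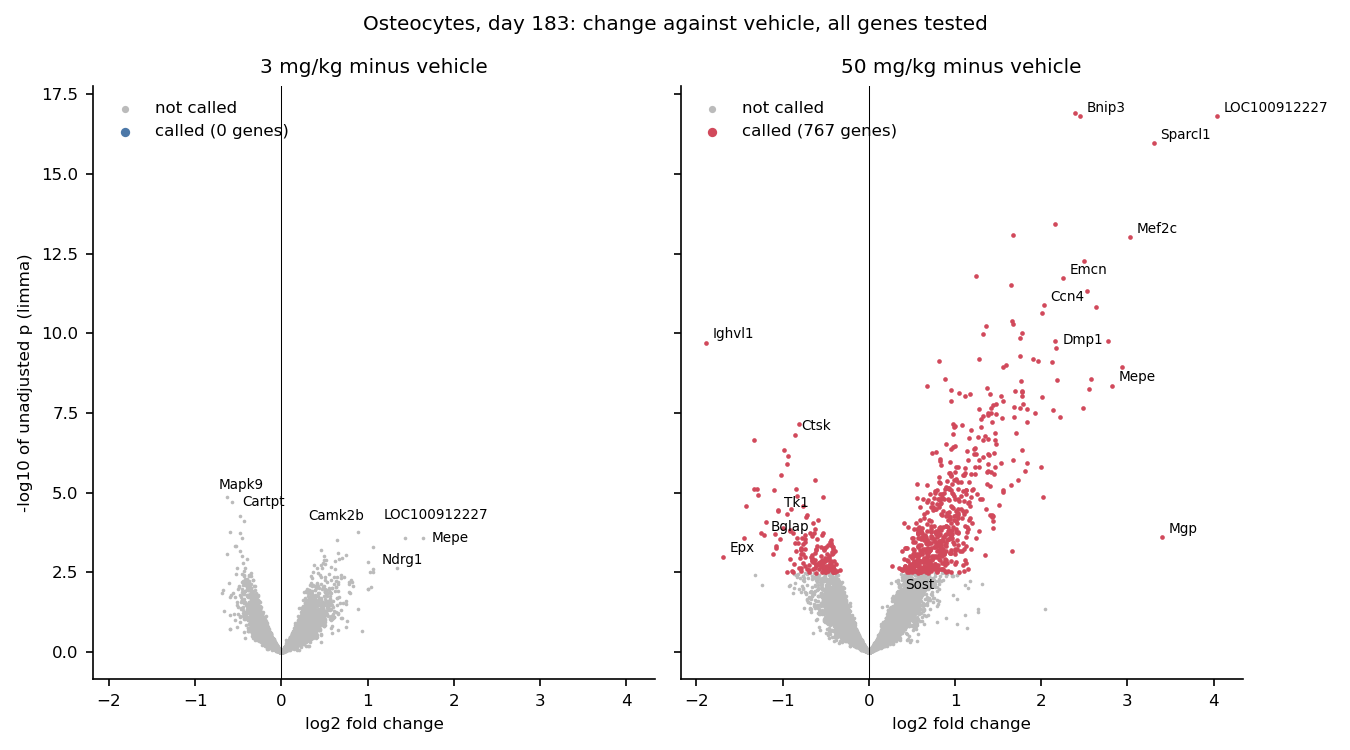
Log2 fold change against vehicle (horizontal axis) and −log10 of the unadjusted limma p (vertical axis) for each of 11860 tested genes in osteocytes of day 183, with 3 mg/kg on the left and 50 mg/kg on the right. Coloured points passed at an adjusted p below 0.05: 0 genes at 3 mg/kg, and 593 that rose and 174 that fell at 50 mg/kg.

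Of the osteocyte markers, 8 of 17 tested rose at 50 mg/kg and 0 fell, beside 5.00% of all tested genes that rose, and their median change was 0.56. They were Mef2c, Mepe, Pdpn, Dmp1, Cd44, Gja1, Fgfr1 and Ptprz1. None passed at 3 mg/kg, where the median was 0.25. The count at 50 mg/kg was 7 to 10 across the alternative settings. Of the markers that rose, Dmp1, Mepe, Gja1 and Fgfr1 were above the other cell types in every vehicle osteocyte array. Mef2c, Pdpn, Ptprz1 and Cd44 were not. Cd44 averaged 7.34 in vehicle osteocytes, 7.90 in osteoblasts and 7.72 in lining cells, with the offset given above. Lrp4 (0.39) and Slit2 (0.24), which were above the other cell types, did not pass at 50 mg/kg.

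The log2 signal of Mepe was 11.94, 11.53, 11.44, 12.15 and 11.15 at 3 mg/kg, 12.41, 12.84, 12.73, 12.86 and 13.24 at 50 mg/kg, against 10.54, 9.66, 9.82, 10.00 and 9.95 with vehicle. The 3 groups did not overlap, and the arrays at 3 mg/kg lay in the middle. The difference from vehicle was 2.82 (SE 0.43, adjusted p = 1.31e-06 by limma) at 50 mg/kg, which is 7.08-fold. The difference at 3 mg/kg was 1.65 (SE 0.43) with an adjusted p of 0.316, so it did not pass although the groups were apart. The 2 doses differed by 1.18 (adjusted p = 0.142), which did not pass.

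Dmp1 had log2 signals of 11.27, 10.98, 10.52, 11.37 and 10.26 at 3 mg/kg, 11.97, 12.03, 12.11, 12.06 and 12.09 at 50 mg/kg, against 10.26, 9.18, 10.09, 9.68 and 10.19 with vehicle. All arrays at 50 mg/kg were above all others and lay close together. Dmp1 rose 4.51-fold at 50 mg/kg (2.17, SE 0.30, adjusted p = 1.4e-07 by limma), and it was also higher at 50 than at 3 mg/kg (1.17, adjusted p = 0.0159). The difference of 3 mg/kg from vehicle was 1.0 with an adjusted p of 0.632.

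Mef2c, a transcription factor that drives Sost expression in osteocytes, had the largest change of the osteocyte markers on the probe sets used. Its log2 signal was 6.29, 6.01, 5.48, 6.96 and 5.54 at 3 mg/kg, 7.40, 8.24, 7.32, 8.63 and 8.52 at 50 mg/kg, against 5.82, 5.21, 3.57, 5.63 and 4.73 with vehicle. The arrays at 50 mg/kg were all above the rest, whereas 3 mg/kg and vehicle overlapped. The rise was 3.03 (SE 0.34, adjusted p = 1.61e-10 by limma), or 8.16-fold, and 50 mg/kg exceeded 3 mg/kg by 1.97 (adjusted p = 6.21e-05). On its dimmer probe set Mef2c differed from vehicle by 1.29 at 50 mg/kg, so its size and its rank depend on the probe set.

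Pdpn, the glycoprotein E11/podoplanin of early osteocyte dendrites, had log2 signals of 4.88, 4.25, 4.27, 5.12 and 3.81 at 3 mg/kg, 5.78, 6.30, 6.06, 6.58 and 6.48 at 50 mg/kg, against 4.28, 3.46, 3.26, 4.03 and 3.78 with vehicle. Again only the arrays at 50 mg/kg stood apart, with a rise of 2.48 (SE 0.40, adjusted p = 4.2e-06 by limma). Cd44, a hyaluronan receptor on osteocytes, had 7.92, 7.84, 7.74, 7.94 and 7.73 at 3 mg/kg, 8.54, 8.38, 8.48, 8.85 and 8.83 at 50 mg/kg, against 7.26, 7.24, 7.27, 7.68 and 7.26 with vehicle. The 3 groups of Cd44 did not overlap, and vehicle replicate 4 lay above the rest of its group. Cd44 rose by 1.27 at 50 mg/kg (SE 0.18, adjusted p = 2.65e-07 by limma). Averaged over its probe sets the difference was 0.81. Gja1, the gap-junction protein connexin 43 that couples osteocyte dendrites, rose by 0.98 (adjusted p = 2.01e-05) and by 0.34 as the mean of its probe sets. Fgfr1 likewise had 0.95 on its brightest probe set and 0.63 as the mean. The call of Ptprz1, a receptor phosphatase, was lost in 10 of 24 alternative settings.

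Sost itself did not pass at either dose. Its log2 signals were 3.12, 3.16, 2.86, 3.37 and 2.63 at 3 mg/kg, 3.36, 2.99, 3.42, 3.72 and 3.35 at 50 mg/kg, against 3.03, 2.98, 3.10, 3.10 and 2.88 with vehicle. These values lie at about the median of the arrays, and the groups overlapped. The difference from vehicle was 0.35 (SE 0.14, adjusted p = 0.129 by limma) at 50 mg/kg and 0.01 at 3 mg/kg.

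**Figure D2:**
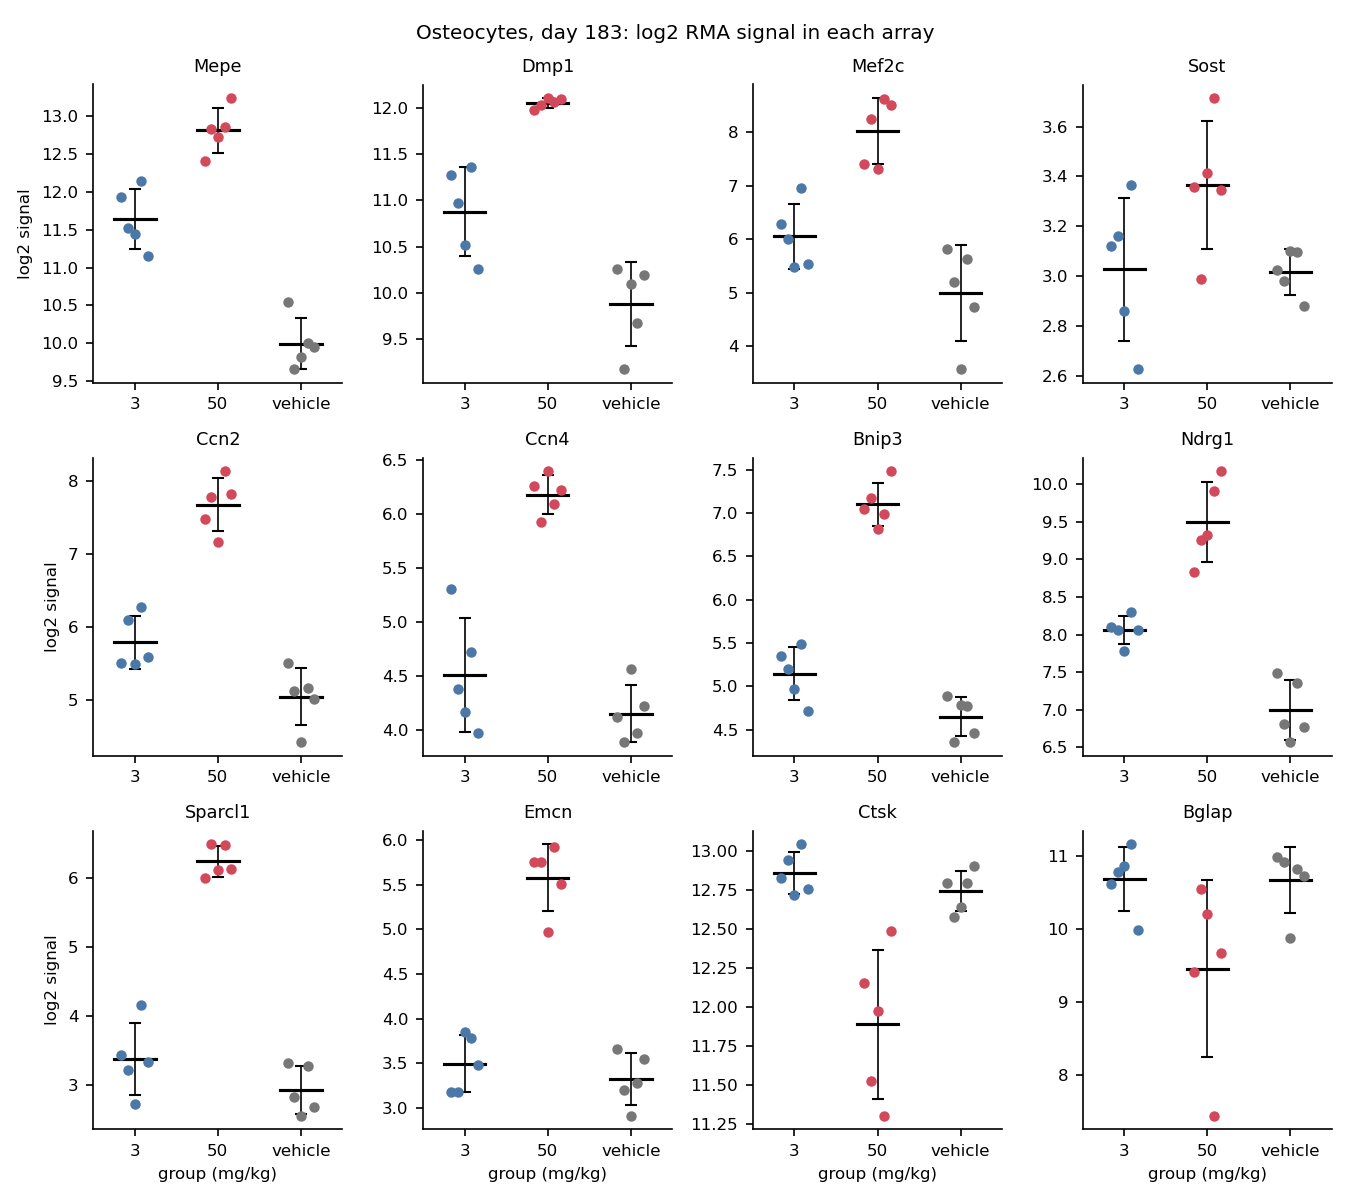
Log2 signal (vertical axis) of 12 genes in each osteocyte array of day 183, in the order 3 mg/kg, 50 mg/kg and vehicle. Points are arrays, lines are group means and bars are SD (n = 5 each). Mepe, Dmp1, Mef2c, Ccn2, Ccn4, Bnip3, Ndrg1, Sparcl1 and Emcn have all arrays at 50 mg/kg above all vehicle arrays, Ctsk has all of them below, and Sost and Bglap overlap.

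Among Wnt target genes, 9 of 17 tested rose at 50 mg/kg and 0 fell, beside 5.00% and 1.47% of all tested genes. They were Ccn2, Ccn4, Tcf7l2, Cd44, Vegfa, Id2, Gja1, Jun and Ccn5. Cd44 and Gja1 are also on the list of osteocyte markers. None passed at 3 mg/kg, with a median change of 0.10. Of the Wnt antagonists 0 of 14 tested genes passed in either direction at 50 mg/kg, with a median of 0.03. For a list of that length this is near the share of all tested genes. The shares of 5.00% that rose and 1.47% that fell stand beside each list count against vehicle at 50 mg/kg below.

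Ccn2, connective tissue growth factor, had log2 signals of 5.51, 6.09, 5.50, 6.27 and 5.59 at 3 mg/kg, 7.49, 7.79, 7.17, 8.14 and 7.83 at 50 mg/kg, against 5.51, 5.12, 4.41, 5.16 and 5.01 with vehicle. All arrays at 50 mg/kg were above the others. The rise was 6.23-fold (2.64, SE 0.34, adjusted p = 1.29e-08 by limma), and 50 mg/kg exceeded 3 mg/kg by 1.89 (adjusted p = 0.000107). Ccn4, a secreted protein of the same family first described as induced by Wnt1, had 5.31, 4.37, 4.17, 4.72 and 3.97 at 3 mg/kg, 6.26, 5.93, 6.40, 6.10 and 6.23 at 50 mg/kg, against 4.12, 3.88, 4.56, 3.97 and 4.22 with vehicle. Its arrays at 3 mg/kg overlapped those with vehicle, and those at 50 mg/kg stood above both. Ccn4 rose by 2.03 at 50 mg/kg (SE 0.26, adjusted p = 1.22e-08).

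Tcf7l2, a DNA-binding partner of β-catenin, rose by 1.68 (SE 0.32, adjusted p = 9.56e-05 by limma) on its brighter probe set and by 0.48 as the mean of its probe sets. Lef1, another such partner, had log2 signals of 4.35, 4.88, 5.14, 4.00 and 4.44 at 3 mg/kg, 3.84, 4.21, 3.46, 4.05 and 3.95 at 50 mg/kg, against 4.72, 4.68, 4.33, 4.41 and 4.75 with vehicle. The Lef1 arrays at 50 mg/kg were all below those with vehicle. The difference of −0.68 (SE 0.23) had an adjusted p of 0.0516, passed in 7 of 24 alternative settings and was −0.41 as the mean of its probe sets. Of the ligands, receptors and intracellular members of the pathway, 2 of 16 rose: the ligand Wnt5b by 1.30 (adjusted p = 0.00089) and the receptor Fzd6 by 0.85 (adjusted p = 0.00225). Fzd6 averaged 2.68 with vehicle, below the array medians, so the size is uncertain. Jun rose by 0.88 on its brightest probe set and by 0.37 as the mean of its probe sets. Axin2 and Tcf7 were below the signal filter, and Dkk1 and Notum were not on the list of named probe sets.

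The TCF/LEF core was searched in promoters as CTTTGAA or CTTTGAT on both strands. RefSeq promoters on the rat build GRCr8, from 250 bases before to 50 after the gene start, matched 9812 of the 11860 tested genes. The core was present in 8.35% of promoters of genes that rose at 50 mg/kg (39 of 467), 5% of those that fell (7 of 140), 5.78% of all tested (567 of 9812) and 8.64% of all promoters in the table (2373 of 27457). These shares describe short windows and no binding. Mepe is shown as an osteocyte gene with a large rise and no match, and the Wnt target Cd44 and the growth factor gene Tgfb2 as genes that rose and hold one. Each is on the minus strand, written 5′ to 3′ with the core in capitals: Mepe at chr14:5736809-5737108 has 0 matches, Cd44 at chr3:109699375-109699674 has 1, and Tgfb2 at chr13:100792636-100792935 has 1.
Mepe: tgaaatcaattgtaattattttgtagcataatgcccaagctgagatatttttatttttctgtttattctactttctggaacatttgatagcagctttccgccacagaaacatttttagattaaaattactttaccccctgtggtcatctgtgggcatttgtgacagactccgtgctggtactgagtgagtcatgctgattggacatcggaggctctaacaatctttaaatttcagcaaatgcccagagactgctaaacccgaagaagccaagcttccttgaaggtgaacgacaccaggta
Cd44: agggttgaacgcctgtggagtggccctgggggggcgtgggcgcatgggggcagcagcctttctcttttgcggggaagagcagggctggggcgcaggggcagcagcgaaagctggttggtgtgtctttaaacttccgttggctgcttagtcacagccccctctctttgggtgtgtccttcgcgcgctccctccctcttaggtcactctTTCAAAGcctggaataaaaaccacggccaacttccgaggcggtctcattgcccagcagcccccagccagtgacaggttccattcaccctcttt
Tgfb2: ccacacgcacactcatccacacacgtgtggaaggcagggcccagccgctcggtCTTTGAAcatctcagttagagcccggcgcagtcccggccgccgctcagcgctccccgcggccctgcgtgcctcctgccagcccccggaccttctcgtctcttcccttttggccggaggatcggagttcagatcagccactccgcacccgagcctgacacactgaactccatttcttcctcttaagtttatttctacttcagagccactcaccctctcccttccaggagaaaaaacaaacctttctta

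Genes of bone matrix rose in part: 9 of 30 tested rose at 50 mg/kg and 1 fell, with a median change of 0.39. Those that rose were Mgp, Mepe, Col3a1, Dmp1, Postn, Col11a1, Fn1, Lum and Smoc1, and the gene that fell was Bglap. Col11a1 rose by 1.35 on its brightest probe set and by 0.50 as the mean of its probe sets. Mepe and Dmp1 count in the osteocyte list as well. None passed at 3 mg/kg, and the median there was 0.28.

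Mgp, an inhibitor of soft-tissue calcification, had log2 signals of 6.60, 8.87, 5.85, 8.44 and 6.44 at 3 mg/kg, 10.65, 10.03, 10.46, 11.08 and 10.09 at 50 mg/kg, against 6.92, 8.27, 6.14, 7.77 and 6.22 with vehicle. Its spread within the 3 mg/kg and vehicle groups was wide, yet all arrays at 50 mg/kg were higher. The rise was 3.40 (SE 0.89, adjusted p = 0.00787 by limma). Col3a1, a fibrillar collagen of unmineralized tissue, had 4.03, 3.64, 4.29, 4.82 and 3.76 at 3 mg/kg, 6.44, 5.91, 6.38, 6.16 and 6.36 at 50 mg/kg, against 3.84, 3.57, 3.88, 3.35 and 3.94 with vehicle. Only the 50 mg/kg group of Col3a1 stood apart, with a rise of 5.79-fold (2.53, adjusted p = 4.79e-09). Postn, the matricellular protein periostin, had 6.11, 5.01, 5.48, 6.27 and 5.48 at 3 mg/kg, 6.47, 6.77, 7.06, 6.63 and 7.05 at 50 mg/kg, against 6.00, 4.69, 4.39, 4.16 and 4.65 with vehicle. Vehicle replicate 1 lay above the other vehicle arrays for Postn but below every array at 50 mg/kg, and the rise was 2.02 (SE 0.44, adjusted p = 0.000803).

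The major osteoblast products did not rise. Col1a1, the main collagen chain of bone, had log2 signals of 11.17, 10.51, 11.55, 11.14 and 10.40 at 3 mg/kg, 9.81, 11.00, 11.05, 8.92 and 10.65 at 50 mg/kg, against 11.09, 11.04, 9.49, 10.70 and 10.88 with vehicle. The groups overlapped, and the adjusted p at 50 mg/kg was 0.661. Bglap, osteocalcin, had 10.62, 10.78, 10.87, 11.16 and 9.99 at 3 mg/kg, 9.42, 10.56, 10.21, 7.45 and 9.67 at 50 mg/kg, against 10.99, 10.93, 9.89, 10.83 and 10.74 with vehicle. Bglap was lowest in 50 mg/kg replicate 4, and the groups overlapped through vehicle replicate 3. It fell by 1.21 at 50 mg/kg (SE 0.31, adjusted p = 0.00696 by limma), and without 50 mg/kg replicate 4 the difference was −0.71 and did not pass. Spp1, osteopontin, had 9.74, 10.52, 9.76, 10.06 and 9.78 at 3 mg/kg, 8.97, 9.24, 9.29, 8.40 and 8.65 at 50 mg/kg, against 9.31, 9.39, 9.66, 9.64 and 10.07 with vehicle. For Spp1 the arrays at 50 mg/kg lay below all others, but the difference from vehicle had an adjusted p of 0.188, while the one from 3 mg/kg passed (−1.06, adjusted p = 0.0397).

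Of 23 collagen-modifying enzymes and chaperones, 5 rose at 50 mg/kg: the proline hydroxylases P4ha1 (1.91), P3h3 (1.43) and P4ha2 (1.33), and the lysine hydroxylases Plod2 (0.80) and Plod3 (0.66). As the mean of its probe sets P4ha2 had 0.68. The call of Plod2 was lost in 8 of 24 alternative settings. Of 16 genes of mineral metabolism 3 rose, namely Mgp, Fam20c and Ankh. Fam20c, the kinase that phosphorylates secreted matrix proteins, rose by 1.38 (SE 0.24, adjusted p = 2.6e-05 by limma). Ankh, which acts in the export of pyrophosphate, rose by 1.37 (adjusted p = 1.47e-06), and its dimmer probe set differed by 0.475. Fgf23, the osteocyte hormone of phosphate balance, was below the signal filter.

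LOC100912227, annotated as a long non-coding RNA, had the largest rise at 50 mg/kg. Its log2 signals were 5.87, 5.19, 4.65, 6.07 and 4.46 at 3 mg/kg, 7.71, 7.90, 7.70, 8.14 and 7.85 at 50 mg/kg, against 4.27, 4.06, 3.03, 4.42 and 3.32 with vehicle. All arrays at 3 mg/kg were above all with vehicle, and all at 50 mg/kg were above both. LOC100912227 rose 16.5-fold at 50 mg/kg (4.04, SE 0.38, adjusted p = 6.19e-14 by limma), while the difference at 3 mg/kg was 1.43 with an adjusted p of 0.316.

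Sparcl1, a matricellular relative of osteonectin, had log2 signals of 3.43, 3.22, 2.72, 4.16 and 3.33 at 3 mg/kg, 6.00, 6.48, 6.11, 6.47 and 6.12 at 50 mg/kg, against 3.32, 2.82, 2.56, 3.28 and 2.69 with vehicle. The arrays at 3 mg/kg and vehicle were near the array median and overlapped, and those at 50 mg/kg were far above. The rise was 3.30 (SE 0.32, adjusted p = 3.18e-13 by limma), and its size is uncertain because the vehicle level is that low. Ackr3, a scavenging receptor for the chemokine Cxcl12, had 5.17, 5.31, 5.17, 5.85 and 4.66 at 3 mg/kg, 6.79, 6.84, 6.81, 7.38 and 7.23 at 50 mg/kg, against 4.56, 4.09, 4.36, 4.15 and 4.00 with vehicle. The 3 groups of Ackr3 did not overlap, and the rise at 50 mg/kg was 2.78 (SE 0.38, adjusted p = 9.09e-08). Hsd11b1, the enzyme that activates glucocorticoids inside cells, had 4.58, 4.28, 4.48, 4.82 and 5.15 at 3 mg/kg, 5.90, 6.17, 6.15, 7.02 and 6.54 at 50 mg/kg, against 4.23, 4.92, 3.74, 4.56 and 4.29 with vehicle. Here too only 50 mg/kg stood apart, with a rise of 2.01 (SE 0.26, adjusted p = 1.83e-08). Magi1, a scaffold protein of cell junctions, rose by 2.55 on its brightest probe set, but the mean of its probe sets was 0.57.

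In the TGF-β and BMP pathway, 8 of 27 tested genes rose at 50 mg/kg and 0 fell, with a median change of 0.32. They were the ligands Tgfb2, Bmp2 and Bmp7, the latent binding proteins Ltbp1 and Ltbp3, the pseudoreceptor Bambi and the targets Id1 and Id2. The count was 5 without vehicle replicate 3 or without 50 mg/kg replicate 2. Tgfb2 had log2 signals of 4.22, 3.80, 3.90, 4.22 and 3.95 at 3 mg/kg, 4.96, 4.99, 4.46, 5.57 and 5.20 at 50 mg/kg, against 3.55, 3.38, 3.12, 3.72 and 3.85 with vehicle. It rose by 1.51 at 50 mg/kg (SE 0.34, adjusted p = 0.0013 by limma), with no overlap with vehicle, and by 0.05 on its dimmer probe set. The call of Bmp2 was lost in 14 of 24 alternative settings, and the mean of its probe sets was 0.56 against 1.11 on the brightest.

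Bambi, which dampens TGF-β and BMP receptors, had log2 signals of 5.83, 5.45, 5.55, 5.62 and 5.22 at 3 mg/kg, 6.12, 7.12, 6.85, 7.91 and 7.63 at 50 mg/kg, against 5.32, 4.06, 2.62, 5.03 and 3.93 with vehicle. The vehicle arrays were the most scattered, and those at 50 mg/kg lay above all others. Bambi rose 7.65-fold (SE 0.43 on the log2 scale, adjusted p = 3.9e-07 by limma). Id1, an inhibitor of helix-loop-helix factors induced by BMP, had 7.83, 6.51, 7.37, 7.53 and 7.07 at 3 mg/kg, 8.09, 8.27, 8.35, 8.52 and 8.87 at 50 mg/kg, against 6.45, 6.17, 6.32, 6.63 and 6.74 with vehicle. For Id1, 1 array at 3 mg/kg lay within the vehicle range, and 0 at 50 mg/kg did. The rise was 3.89-fold (1.96, SE 0.28, adjusted p = 2.83e-07).

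Of 21 genes of IGF and FGF signalling 6 rose at 50 mg/kg and 0 fell. The binding proteins Igfbp7 and Igfbp3 rose by 1.78 (adjusted p = 1.82e-06 by limma) and 1.55 (adjusted p = 7.03e-06). The ligands Fgf9 and Igf1 rose by 1.66 (adjusted p = 0.0165) and 0.64 (adjusted p = 0.0252). Fgfr1, a receptor, and Dusp6, a phosphatase induced by FGF signalling, made up the rest. As the mean of its probe sets Fgf9 had 0.90. The call of Fgf9 was lost when any 1 of vehicle replicate 5, 50 mg/kg replicate 4 and 50 mg/kg replicate 5 was left out.

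Of the hypoxia and glycolysis list, 8 of 23 tested genes rose at 50 mg/kg and 0 fell, with a median change of 0.32. They were Ndrg1, Bnip3, P4ha1, Tpi1, Vegfa, Egln1, Slc2a1 and Aldoa, which take in stress-response, mitophagy, collagen-hydroxylation, glycolytic, glucose-transport and angiogenic genes. P4ha1 is counted among the collagen enzymes and Vegfa among the Wnt targets as well. Of 38 mitochondrial respiratory genes 0 passed in either direction, with a median of −0.02.

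Ndrg1, a stress-response gene induced by hypoxia, had log2 signals of 8.11, 8.06, 7.79, 8.30 and 8.06 at 3 mg/kg, 8.83, 9.26, 9.33, 9.91 and 10.17 at 50 mg/kg, against 7.49, 6.81, 6.57, 7.36 and 6.78 with vehicle. The 3 groups did not overlap, and 3 mg/kg lay in the middle. Ndrg1 rose by 2.50 at 50 mg/kg (SE 0.29, adjusted p = 8.16e-10 by limma), and at 3 mg/kg the difference was 1.06 with an adjusted p of 0.423. On its dimmer probe set Ndrg1 differed from vehicle by 1.02 at 50 mg/kg. Bnip3, a mitophagy receptor, had 5.36, 5.20, 4.97, 5.49 and 4.72 at 3 mg/kg, 7.05, 7.18, 6.81, 6.99 and 7.48 at 50 mg/kg, against 4.89, 4.35, 4.78, 4.77 and 4.46 with vehicle. Its arrays at 50 mg/kg were far above the others. The rise of Bnip3 was 5.46-fold (2.45, SE 0.23, adjusted p = 6.19e-14), and 50 mg/kg exceeded 3 mg/kg by 1.96 (adjusted p = 1.38e-09).

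P4ha1, a catalytic subunit of collagen prolyl 4-hydroxylase, had log2 signals of 5.64, 5.86, 5.91, 5.99 and 5.34 at 3 mg/kg, 6.72, 7.05, 7.06, 7.68 and 6.99 at 50 mg/kg, against 5.66, 5.16, 4.88, 5.66 and 4.59 with vehicle. Only the arrays at 50 mg/kg stood apart (1.91, SE 0.27, adjusted p = 2.65e-07 by limma). Tpi1, a glycolytic enzyme, rose by 1.38 (adjusted p = 0.000119), Vegfa, an angiogenic growth factor, by 1.17 (adjusted p = 2.43e-05), and Slc2a1, a glucose transporter, by 0.93 (adjusted p = 0.000893).

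The HIF core was searched as ACGTG or GCGTG on both strands, a search added after the values had been seen. It was present in 57.6% of promoters of genes that rose at 50 mg/kg (269 of 467), 60.2% of all tested (5905 of 9812) and 42.9% of all in the table. The hypoxia and glycolysis genes that rose held it in 4 of 7 matched promoters, and all tested genes of that list in 15 of 20. The share among the genes that rose was thus near that of all tested genes. The promoters of Bnip3 and P4ha1 are shown because both genes rose and hold several copies. They come from RefSeq on GRCr8, are written 5′ to 3′ and carry the core in capitals. Bnip3 is at chr1:203154913-203155212 on the minus strand with 4 matches, of which 2 overlap on opposite strands, and P4ha1 is at chr20:27844796-27845095 on the plus strand with 3 matches.
Bnip3: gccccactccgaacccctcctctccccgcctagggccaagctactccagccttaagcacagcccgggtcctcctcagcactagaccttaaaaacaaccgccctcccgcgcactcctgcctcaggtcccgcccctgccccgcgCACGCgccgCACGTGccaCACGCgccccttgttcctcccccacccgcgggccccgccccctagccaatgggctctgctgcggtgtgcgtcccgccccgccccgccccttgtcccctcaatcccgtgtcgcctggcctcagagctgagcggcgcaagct
P4ha1: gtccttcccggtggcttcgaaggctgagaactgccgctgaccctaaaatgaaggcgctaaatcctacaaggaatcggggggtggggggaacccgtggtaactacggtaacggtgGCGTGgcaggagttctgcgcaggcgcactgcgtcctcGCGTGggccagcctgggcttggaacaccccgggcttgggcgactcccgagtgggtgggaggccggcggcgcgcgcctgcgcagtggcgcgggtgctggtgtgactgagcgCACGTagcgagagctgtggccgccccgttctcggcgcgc

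Among immediate-early and heat-shock genes, 8 of 26 tested rose at 50 mg/kg and 0 fell. Egr2, a transcription factor of this class, rose by 2.22 (SE 0.37, adjusted p = 6.98e-06 by limma) and by 1.13 as the mean of its probe sets. The chaperones Hspb1 and Hspa1a rose by 2.01 (adjusted p = 2.26e-06) and 1.11 (adjusted p = 0.000224). Hspa1a averaged 2.72 with vehicle, below the array medians, so its size is uncertain. Jun, Klf6, Ier3, Jund and Dusp1 made up the rest. Of 28 ribosomal protein and translation genes 8 rose, with 3 after quantile normalization, and of 33 ribosome biogenesis genes 0 passed. The call of the elongation factor Eef1a1 was lost in 11 of 24 alternative settings. Of 19 p53 targets only Cdkn1a, a cell-cycle inhibitor, rose (adjusted p = 0.00615), by 1.03 on its brightest probe set and by 0.45 as the mean of its probe sets.

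**Figure D3:**
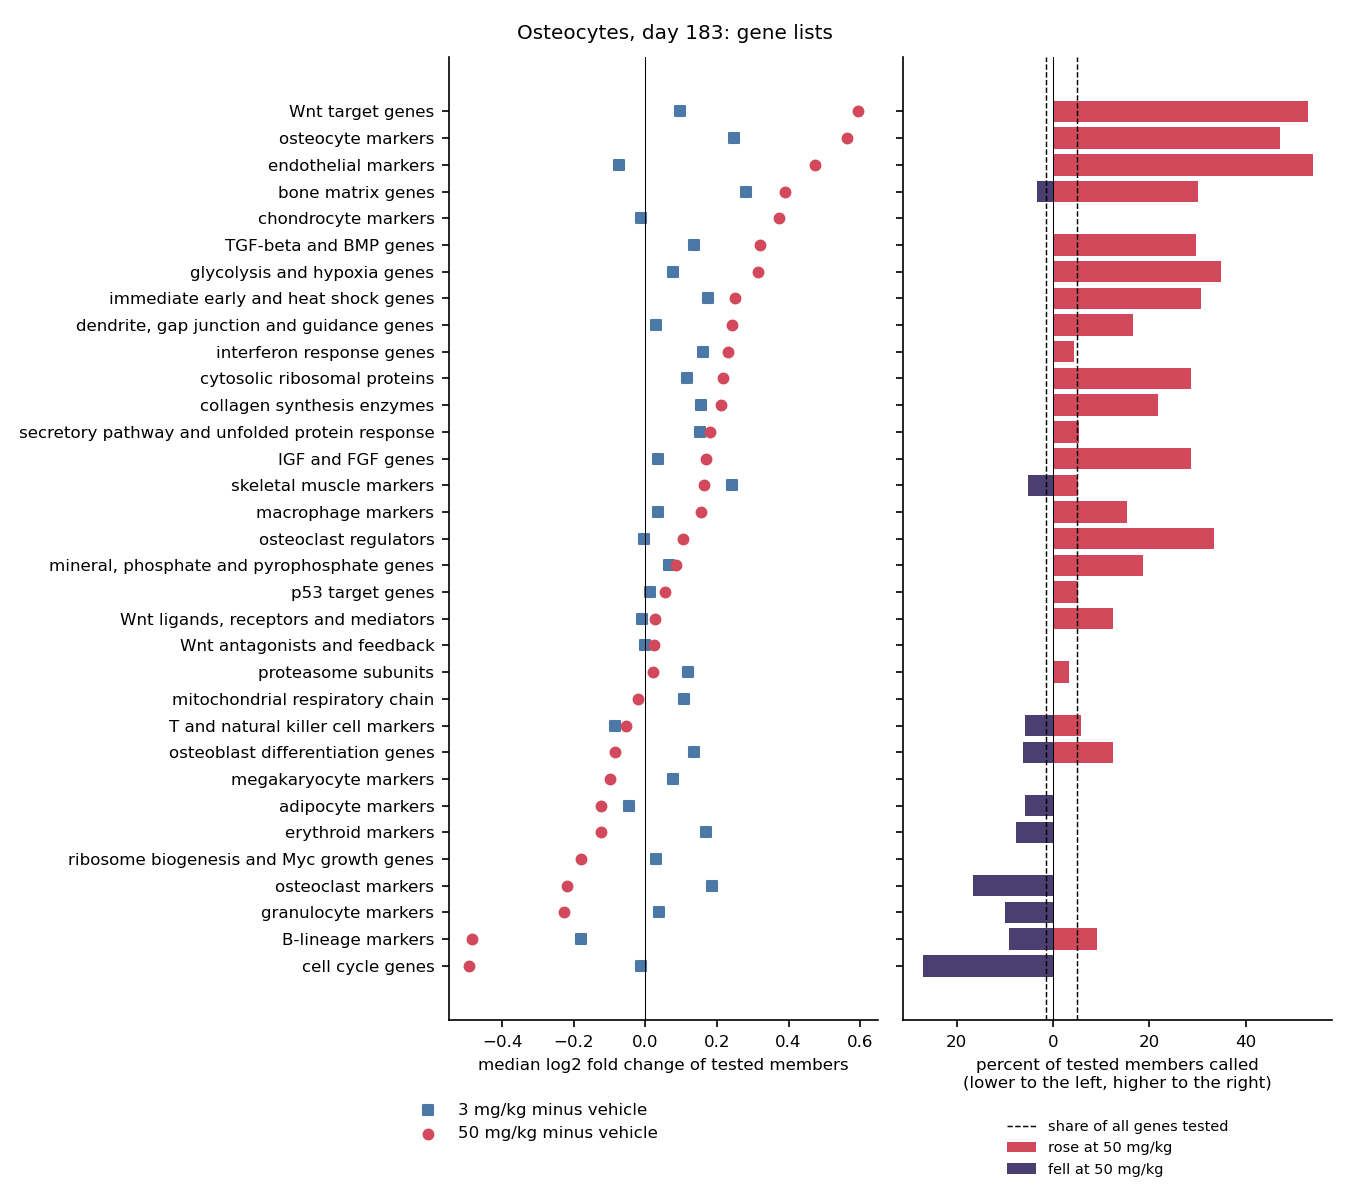
Median log2 fold change against vehicle of 33 gene lists in osteocytes of day 183 at 3 and 50 mg/kg, and the percent of each list that rose or fell at 50 mg/kg. Dashed lines mark the percent of all tested genes that rose (5.00%) and fell (1.47%). Osteocyte markers (8 of 17), endothelial markers (7 of 13) and Wnt targets (9 of 17) have the highest shares that rose, and cell-cycle genes (10 of 37) the highest share that fell.

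Cell-cycle genes fell at 50 mg/kg: 10 of 37 tested fell and 0 rose, beside 1.47% of all tested genes that fell, and their median change was −0.49. Tk1, thymidine kinase, had log2 signals of 8.40, 7.94, 8.62, 8.09 and 8.41 at 3 mg/kg, 8.02, 6.79, 7.58, 7.05 and 6.78 at 50 mg/kg, against 8.78, 8.35, 8.22, 8.09 and 8.03 with vehicle. All arrays of Tk1 at 50 mg/kg lay below those with vehicle, replicate 1 only just. Tk1 fell by 1.05 (SE 0.24, adjusted p = 0.00178 by limma), and by 0.60 as the mean of its probe sets. Mcm3, part of the replicative helicase, had 6.88, 6.91, 7.33, 6.33 and 7.09 at 3 mg/kg, 5.87, 5.87, 6.42, 6.08 and 5.98 at 50 mg/kg, against 6.89, 7.0, 6.99, 6.92 and 6.97 with vehicle. Mcm3 fell by 0.91 (SE 0.23, adjusted p = 0.0057) without overlap with vehicle, and the mitotic kinesin Kif20a fell by 0.84 (adjusted p = 0.0165). Mcm5, Stmn1, Ube2c, Cdk1, Birc5, Mcm7 and Top2a were the others. The count of cell-cycle genes that fell was 5 without 50 mg/kg replicate 2 and 2 without 50 mg/kg replicate 5, but 16 after quantile normalization, 18 with array weights and 20 with signal range as a covariate.

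Several genes of other cell types moved too, which bears on what the captures held. Of 12 osteoclast markers 2 fell at 50 mg/kg and 0 rose. Ctsk, the collagen-degrading protease cathepsin K, had log2 signals of 12.82, 12.94, 12.72, 13.04 and 12.75 at 3 mg/kg, 12.16, 11.53, 11.98, 11.31 and 12.49 at 50 mg/kg, against 12.79, 12.58, 12.64, 12.79 and 12.90 with vehicle. All arrays at 50 mg/kg were below all others, and Ctsk fell by 0.85 (SE 0.15, adjusted p = 2.02e-05 by limma). Tcirg1, a subunit of the osteoclast proton pump, fell by 0.68 (adjusted p = 0.00629), a call lost without 50 mg/kg replicate 5. The mean log2 signal of the osteoclast list was 6.48 to 6.59 at 3 mg/kg, 5.93 to 6.26 at 50 mg/kg and 6.29 to 6.43 with vehicle, so that the 3 groups were apart.

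Of 13 endothelial markers 7 rose at 50 mg/kg and 0 fell, with a median change of 0.48, and the count was 4 without vehicle replicate 3 or vehicle replicate 5. Emcn, the vessel sialomucin endomucin, had log2 signals of 3.18, 3.18, 3.85, 3.79 and 3.49 at 3 mg/kg, 5.75, 5.75, 4.97, 5.92 and 5.51 at 50 mg/kg, against 3.66, 3.21, 2.92, 3.29 and 3.55 with vehicle. It was near the array median in the vehicle and 3 mg/kg arrays and above both in every array at 50 mg/kg, with a rise of 2.25 (SE 0.27, adjusted p = 2.24e-09 by limma) whose size is uncertain for that reason. Plvap, a protein of vessel diaphragms, rose by 1.32 (adjusted p = 7.67e-05), and Tek, the angiopoietin receptor, by 1.16 (adjusted p = 0.000341). The mean log2 signal of the endothelial list was 3.93 to 4.29 at 3 mg/kg, 4.44 to 4.82 at 50 mg/kg and 3.89 to 4.21 with vehicle. Its summed signal was 327 to 397 at 3 mg/kg, 442 to 623 at 50 mg/kg and 308 to 376 with vehicle, and that of the osteocyte list was 4980 to 9553, 11999 to 17393 and 2736 to 4403 in the same order. At 50 mg/kg both sums were above vehicle in every array. At 3 mg/kg the osteocyte sum was above vehicle in every array, whereas the endothelial sum overlapped it. The osteocyte sum is weighted to the brightest members, among them Mepe and Dmp1. The mean log2 signal of the osteocyte list was 5.89 to 6.44 at 3 mg/kg, which overlapped the 5.57 to 5.94 with vehicle. The part of vessel cells in the rises of other lists at 50 mg/kg was not tested.

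**Figure D4:**
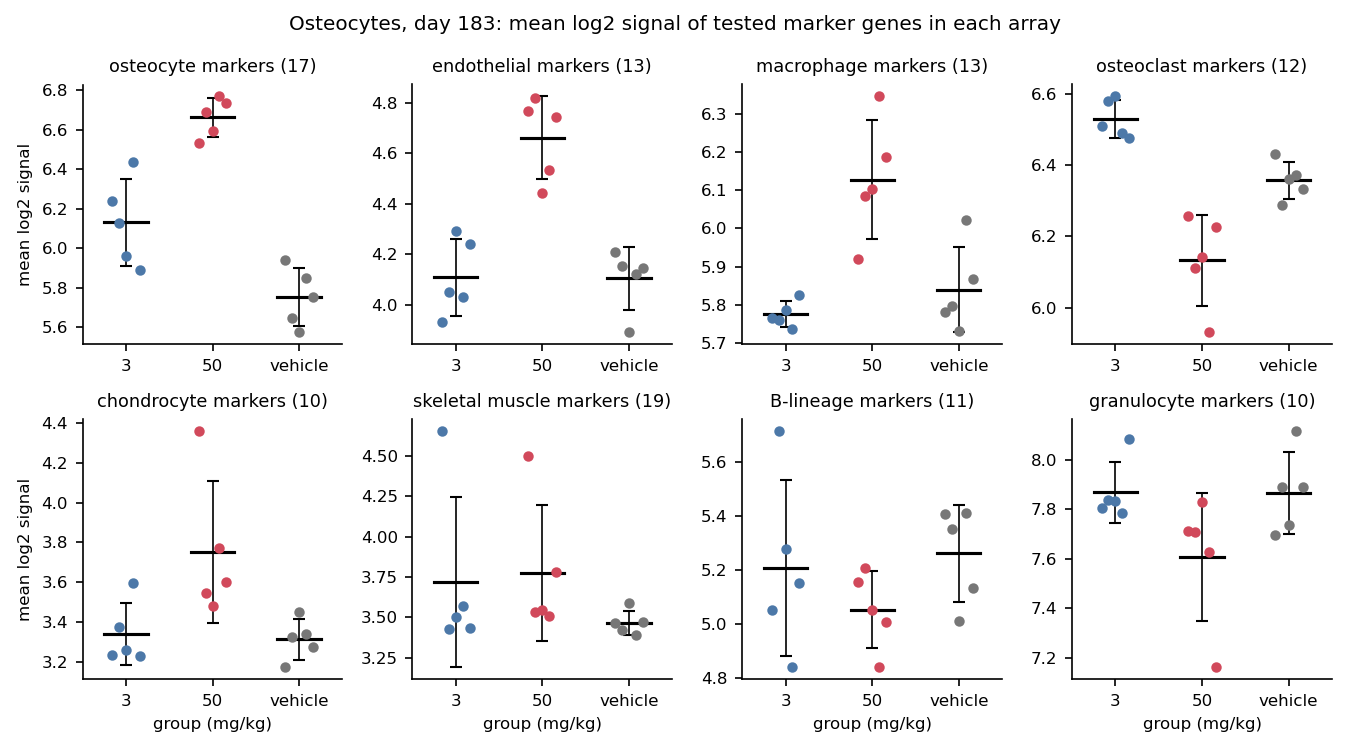
Mean log2 signal of 8 cell-type marker lists (vertical axis) in each osteocyte array of day 183, in the order 3 mg/kg, 50 mg/kg and vehicle. Points are arrays, lines are group means, bars are SD (n = 5 each), and the number of genes is in each panel title. Osteocyte and endothelial markers are higher in all arrays at 50 mg/kg than in all vehicle arrays, osteoclast markers are lower, and muscle markers stand out in 3 mg/kg replicate 1 and 50 mg/kg replicate 1.

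Among macrophage markers, 2 of 13 rose at 50 mg/kg. Mrc1, the mannose receptor, had log2 signals of 5.58, 5.49, 5.08, 5.42 and 5.94 at 3 mg/kg, 6.21, 6.98, 6.60, 7.23 and 6.94 at 50 mg/kg, against 5.60, 5.41, 5.47, 5.97 and 5.75 with vehicle. The arrays at 50 mg/kg were above the others (1.15, SE 0.26, adjusted p = 0.00113 by limma), and Adgre1, an adhesion receptor of macrophages, rose by 1.12 (adjusted p = 0.000153). The 2 largest falls were of blood-cell genes. Ighvl1, an immunoglobulin heavy-chain gene, had 10.03, 10.95, 10.67, 9.32 and 10.49 at 3 mg/kg, 9.08, 8.91, 9.62, 8.85 and 8.96 at 50 mg/kg, against 11.22, 11.23, 10.81, 11.07 and 10.52 with vehicle. Ighvl1 was lower in all arrays at 50 mg/kg than in any with vehicle (SE 0.26, adjusted p = 9.63e-08). Epx, eosinophil peroxidase, had 7.63, 7.17, 7.66, 7.24 and 7.42 at 3 mg/kg, 6.60, 5.96, 5.65, 5.90 and 5.08 at 50 mg/kg, against 7.96, 7.74, 7.89, 6.91 and 7.13 with vehicle. Epx fell by 1.69 (adjusted p = 0.0221) without overlap, although the call was lost in 4 of 24 alternative settings, those without vehicle replicate 1, 2 or 3 or without 50 mg/kg replicate 5.

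The remaining lists moved in few members at 50 mg/kg. Of 12 osteoclast regulators 4 rose: Ackr3, Postn, the chemokine Ccl2 by 0.98 (adjusted p = 0.000674 by limma) and the cytokine Il1b by 0.71 (adjusted p = 0.0155). Ccl2 averaged 2.58 with vehicle, below the array medians, so its size is uncertain. Of 24 genes of dendrites, gap junctions and guidance 4 rose, namely Pdpn, Gja1, Ptprz1 and the guidance cue Sema3e. Of 16 osteoblast differentiation genes Mef2c and Dlx3 rose and Bglap fell. Of 37 genes of the secretory pathway 2 rose, of 30 proteasome subunits 1 and of 23 interferon response genes 1, B2m, the light chain of MHC class I. The shares of the secretory, proteasome and interferon lists were near the 5.00% of all tested genes that rose. Those of the osteoclast regulators, the dendrite list and the osteoblast differentiation genes were above it but rest on few members. Of these, Pdpn, Gja1, Ptprz1 and Mef2c are also osteocyte markers, and Postn is also a bone matrix gene. None of these shares is read as a change of its list. Among blood and fat cells, 1 of 13 erythroid, 1 of 10 granulocyte and 1 of 17 adipocyte markers fell. B-lineage markers had 1 rise, Cd74, and 1 fall, Cd22, among 11, and T and natural killer cell markers had 1 rise, Gzmb, and 1 fall, Nkg7, among 17. Gzmb rose by 1.73 on its brightest probe set and by 1.0 as the mean of its probe sets.

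Muscle markers, 19 of which were tested, were high in single arrays of both antibody groups. Their mean log2 signal was 4.65 in 3 mg/kg replicate 1 against 3.43 to 3.57 in the rest of that group, and 4.50 in 50 mg/kg replicate 1 against 3.51 to 3.78. With both arrays left out, a setting added after the values had been seen, 737 genes passed at 50 mg/kg against vehicle. Tnnc1, the slow-muscle and cardiac troponin C, had 5.02, 4.46, 4.99, 5.20 and 4.29 at 3 mg/kg, 6.99, 6.64, 7.24, 7.21 and 7.09 at 50 mg/kg, against 4.66, 4.32, 4.12, 4.56 and 4.61 with vehicle. Unlike the list mean, Tnnc1 was high in every array at 50 mg/kg and was not highest in replicate 1 (2.58, SE 0.39, adjusted p = 9.15e-07 by limma). Myh7 of the same list fell by 0.47, from a mean of 3.11 with vehicle to 2.64, around or below the array medians. The dimmer probe set of Myh7 differed by −0.004. Chondrocyte markers, 10 of which were tested, did not pass in either direction, with mean log2 signals of 3.23 to 3.60 at 3 mg/kg, 3.48 to 4.36 at 50 mg/kg and 3.17 to 3.45 with vehicle.

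The doses were then compared directly. Between 50 and 3 mg/kg, 339 genes differed (2.86%), with 264 higher (2.23%) and 75 lower (0.632%). Osteocyte markers were higher in 5 of 17, Wnt targets in 6 of 17, hypoxia and glycolysis genes in 6 of 23 and endothelial markers in 6 of 13. Cell-cycle genes were lower in 6 of 37 and osteoclast markers in 3 of 12. Ctsk was lower by 0.96 at 50 than at 3 mg/kg (adjusted p = 4.11e-06 by limma). The count fell to 173 without 50 mg/kg replicate 5, 186 without 50 mg/kg replicate 4, 225 without 50 mg/kg replicate 2, 209 without 3 mg/kg replicate 3 or 5, 220 without 3 mg/kg replicate 1, and 223 without both arrays of high muscle signal.

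The genes with the smallest p at 3 mg/kg are given as values, since 0 passed. Camk2b, a subunit of the calcium/calmodulin kinase II, differed by 0.89 (adjusted p = 0.301 by limma) and by 0.47 as the mean of its probe sets. Its log2 signals were 4.89, 4.34, 5.00, 4.83 and 4.05 at 3 mg/kg and 3.68, 4.05, 3.08, 3.85 and 3.99 with vehicle, which lay just apart. Arl1, a small GTPase of the Golgi, differed by 0.64 (adjusted p = 0.327). On the lower side, Mapk9, the stress kinase Jnk2, differed by −0.63 and Cartpt, a neuropeptide precursor, by −0.57, both with an adjusted p of 0.119. The other probe set of Mapk9, of like brightness, differed by 0.25. Cartpt was at 2.77 ± 0.18 at 3 mg/kg and 3.34 ± 0.32 with vehicle (SD, n = 5 each), around or below the array medians.

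The response of day 183 was set against that of earlier days, each measured against the vehicle rats of its own day. The signal range of osteocyte arrays was 2.88 to 3.35 at day 8 and 2.46 to 2.86 at day 183. Arrays of these days thus differ in scale as well as in time of dosing, and what this adds to the values of single genes was not tested. The response at 50 mg/kg differed from that of day 8 for 429 genes (3.62%), 360 of them with a higher (3.04%) and 69 with a lower difference (0.582%) at day 183. Without 50 mg/kg replicate 4 of day 183 the count was 266, without vehicle replicate 3 it was 277, and with signal range as a covariate it was 321. From day 29 it differed for 2 genes, both higher (0.0169%), and from day 85 for 6 (0.0506%), of which 1 was higher (0.00843%) and 5 lower (0.0422%). The response within each day took in 111 genes at day 8 (0.936%), 780 at day 29 (6.58%) and 1214 at day 85 (10.2%). Of these 38 (0.320%), 394 (3.32%) and 798 (6.73%) rose and 73 (0.616%), 386 (3.25%) and 416 (3.51%) fell, in the order of the days. Of the genes that rose at day 183, 5 had also risen at day 8 (0.843% of the day 183 genes and 13.2% of the day 8 genes), 244 at day 29 (41.1% and 61.9%) and 302 at day 85 (50.9% and 37.8%).

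The difference of Mepe from vehicle at 50 mg/kg was 0.22 at day 8, 1.60 at day 29, 1.84 at day 85 and 2.82 at day 183, and the response of day 183 exceeded that of day 8 by 2.60. Dmp1 showed 0.10, 1.35, 1.37 and 2.17 on the same days, and LOC100912227 showed 0.62, 2.88, 2.75 and 4.04. Bnip3 showed 0.09, 1.70, 2.81 and 2.45, and Emcn −0.44, 0.79, 1.98 and 2.25. These genes differed little from vehicle at day 8 and passed the test of the change between day 8 and day 183. Of the osteocyte markers 6 had a higher response at day 183 than at day 8, as did 6 Wnt targets and 6 genes of hypoxia and glycolysis.

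For Lox, Slc13a5 and Omd the response was largest at day 8. Lox, the enzyme that cross-links collagen, showed 2.42 at day 8, 1.16 at day 29, 0.87 at day 85 and 0.49 at day 183, where it no longer passed (adjusted p = 0.326 by limma). Slc13a5, a citrate transporter, showed 2.09, 1.29, 0.86 and 0.02 on these days. Omd, the matrix proteoglycan osteomodulin, showed 1.98, 1.31, 0.59 and 0.37. The responses of Lox, Slc13a5 and Omd were lower at day 183 than at day 8 by 1.93, 2.06 and 1.61 on the log2 scale.

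Bglap changed its direction between days, with 0.61 at day 8, 0.63 at day 29, −1.16 at day 85 and −1.21 at day 183. The early values of Bglap did not pass and the late ones did, and its response differed by −1.83 between day 183 and day 8. Sost showed 0.26, 0.75, 0.48 and 0.35 on these days. It rose at day 29 (adjusted p = 8.9e-05 by limma) and at day 85 (adjusted p = 0.0378) but did not pass at days 8 and 183, with a signal near the array median that limits all of these values.

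Against day 29, Hsd11b1 had a response higher by 1.88 (SE 0.37, adjusted p = 0.0124 by limma), and S100a9, a granulocyte calcium-binding protein, by 1.20 (SE 0.23, adjusted p = 0.0124). Against day 85, Mppe1, a phosphoesterase of GPI-anchor transport, was higher by 1.34 (adjusted p = 0.0134), and Patj, Gpc2, Vps53, C5h1orf159 and Pclo were lower. At day 183 itself S100a9 differed from vehicle by 0.32, Mppe1 by 0.285 and Patj by 0.08, with arrays that overlapped those with vehicle. A difference between days also holds the change of the earlier day. At 3 mg/kg the response differed from day 8 for 0 genes (422 at an unadjusted p below 0.05) and from day 29 for 0 (418). The 422 and 418 are no more than that threshold gives by chance where no gene changes. From day 85 the response at 3 mg/kg differed for 1 gene (0.00843%), Ylpm1, by 1.52 (adjusted p = 0.0457 by limma). Ylpm1 differed from vehicle by 0.21 at day 183 itself, with overlapping arrays. Array weights gave 1 gene against day 8. The small counts at 50 mg/kg moved with single arrays. Against day 29 there were 0 genes without vehicle replicate 1, 1 without vehicle replicate 3 or 50 mg/kg replicate 4, 4 without 50 mg/kg replicate 2, and 5 without vehicle replicate 4 or 50 mg/kg replicate 1. Against day 85 there were 11 without vehicle replicate 1, 3 without vehicle replicate 4 or 50 mg/kg replicate 1, and 1 without 50 mg/kg replicate 3. The call of Ylpm1 was lost without any 1 of vehicle replicates 1, 3, 4 and 5, 3 mg/kg replicates 1, 3 and 4, and 50 mg/kg replicates 2 and 5.

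**Figure D5:**
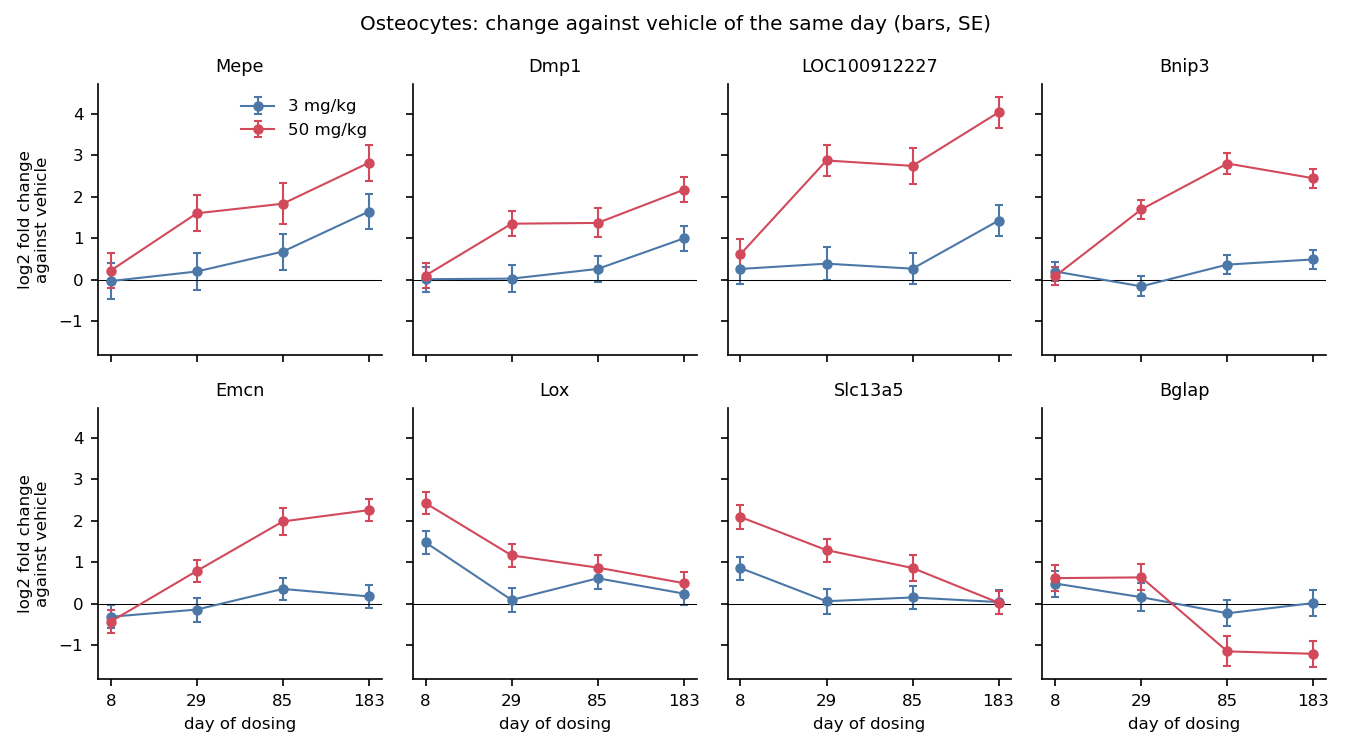
Log2 fold change against the vehicle rats of the same day (vertical axis) for 8 genes in osteocytes at days 8, 29, 85 and 183 (horizontal axis, days evenly spaced), at 3 and 50 mg/kg. Points are limma estimates and bars are SE. At 50 mg/kg Mepe, Dmp1, LOC100912227, Bnip3 and Emcn are near 0 or below 0.62 at day 8 and above 2 at day 183, Lox and Slc13a5 are above 2 at day 8 and below 0.5 at day 183, and Bglap is above 0 at day 8 and below 0 at day 183.

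Osteocytes were finally compared with osteoblasts and lining cells of day 183, for 11082 genes tested in one fit. The osteocyte response at 50 mg/kg differed from that of osteoblasts for 700 genes (6.32%), with 365 higher (3.29%) and 335 lower (3.02%), and from that of lining cells for 662 (5.97%), with 403 higher (3.64%) and 259 lower (2.34%). Within osteoblasts 764 genes passed (6.89%), 583 higher (5.26%) and 181 lower (1.63%), and within lining cells 301 (2.72%), 245 higher (2.21%) and 56 lower (0.505%). Of the genes that rose in osteocytes 58 also rose in osteoblasts, which is 9.95% of the osteocyte genes and 9.97% of the osteoblast genes. With lining cells 31 were shared (5.32% and 12.7%).

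LOC100912227 responded more in osteocytes than in osteoblasts by 4.10, Bnip3 by 2.80 and Ndrg1 by 2.61, all of which passed by limma. Against lining cells Mepe responded more by 4.00 and Ackr3 by 2.81. Of the osteocyte markers, 7 had a higher response in osteocytes than in osteoblasts and 9 a higher one than in lining cells, and of the Wnt targets 7 had in each comparison. Over all tested genes 3.29% had a higher response in osteocytes than in osteoblasts and 3.64% than in lining cells. In osteoblasts and in lining cells themselves 0 Wnt targets passed. For so short a list this is near the share of all tested genes that rose there (5.26% and 2.21%), and it does not set osteocytes apart. Cell-cycle genes went the other way: 25 had a lower response in osteocytes than in osteoblasts, where 6 had risen, and 14 a lower one than in lining cells. Over all tested genes these shares of lower responses were 3.02% and 2.34%. Hipk1, a nuclear kinase, and Gng10, a G-protein subunit, rose in osteoblasts but differed from vehicle by only 0.25 and 0.10 in osteocytes. The response of Gng10 was lower in osteocytes than in osteoblasts by 1.75 on the log2 scale (adjusted p = 4.5e-06), and that of Hipk1 by 1.33 (adjusted p = 0.00096).

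The osteocyte response at 3 mg/kg differed from osteoblasts for 1 gene (0.00902%), Gng10 (−1.43, adjusted p = 0.00907 by limma). It differed from lining cells for 3 (0.0271%), namely Mepe (3.20, adjusted p = 0.0167), LOC100912227 (1.58) and Ackr3 (1.36). These genes are the ones in which a response at the lower dose passed a test between cell types, although 0 genes passed against vehicle within osteocytes. Each such difference also holds the change of the other cell type. The osteocyte change itself at 3 mg/kg was 1.65 for Mepe and 0.11 for Gng10. Mepe had an SD of 1.31 in vehicle lining cells. The count against osteoblasts was 5 without 3 mg/kg replicate 5, 3 without vehicle replicate 1, and 2 without vehicle replicate 4 or 3 mg/kg replicate 3. The count against lining cells was 1 without 3 mg/kg replicate 1 and 0 without 3 mg/kg replicate 4.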

How the data were processed

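RNA of laser-captured osteocytes was measured on Affymetrix rat arrays, which give 1 intensity per probe set. The deposited values are intensities on a linear scale, taken as RMA values. RMA, affy 1.38.1, R 3.0.1 and Affymetrix Expression Console are named, without their roles, per the submitters' processing notes. Median log2 values ran from 2.89 to 3.72 over the 294 arrays and differed by cell type and by day. The arrays thus do not share one distribution as they would after quantile normalization of all together. The labels do not say which arrays were normalized together. Values ran from 2.94 to 28282 and were turned to log2 here. Of 31042 probe sets, 20826 named 1 gene, 436 several and 9780 none in the platform annotation, and only those with 1 gene were used. Symbols were updated through gene IDs for 20758 of them. A gene was represented by its probe set of highest mean over the osteocyte arrays. For the 4525 genes with several probe sets, the mean of probe sets was an alternative.

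Genes above the array median in at least 5 arrays were tested with limma 3.58.1 in R 4.3.3 (lmFit and eBayes, with statmod 1.5.0). One fit held all 97 osteocyte arrays in 20 groups (11860 genes), and another all 45 arrays of day 183 in 9 groups (11082 genes). Benjamini-Hochberg adjusted p-values were taken per contrast with a threshold of 0.05. Cells of 5 animals per group were captured, but the labels do not name the animal behind an array, so p-values measure the spread between arrays, which may in part be technical. The number of arrays limits the precision, and 0 value columns were left unused. Alternatives were no filter, quantile normalization, median centring, mean of probe sets, array weights, the 15 arrays alone, signal range as a covariate, trend and robust eBayes, and each array left out in turn. The procedure was tested on simulated data. Promoters were counted and plots drawn with Python 3.11.15, pandas 2.3.3, NumPy 2.4.6 and matplotlib 3.10.9.

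The genes named were the 12 largest rises and falls per dose among those that passed (the 5 of smallest p in a direction where under 5 passed), fixed genes of 33 gene lists, up to 4 changed members per list, and the 4 largest of each direction in the other contrasts, and some were left out for space. The comparison, the gene lists and the rule were chosen with earlier results of these data known.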

Additional observations from a re-analysis of the deposited data

Results flagged for a closer look

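In groups of 5 arrays, 1 array stood far from the others for 10 of the 171 groups looked at (5.85%), where chance gives about 1 in 20. Among genes, Cd44 had a log2 signal of 7.68 in vehicle replicate 4, against 7.24 to 7.27 in the other vehicle arrays. Tcf7l2 had 6.89 in 3 mg/kg replicate 4, against 6.05 to 6.28 in the rest of its group. Postn had 6.00 in vehicle replicate 1, against 4.16 to 4.69, and Fam20c had 7.95 in the same array, against 7.19 to 7.35. Vehicle replicate 3 was low for the osteoblast products, with 9.49 for Col1a1 against 10.70 to 11.09, and 9.89 for Bglap against 10.74 to 10.99. Among marker lists, the endothelial mean was 3.89 in vehicle replicate 3, against 4.12 to 4.21, and the granulocyte mean was 8.08 in 3 mg/kg replicate 5, against 7.78 to 7.84. The skeletal muscle mean was 4.65 in 3 mg/kg replicate 1, against 3.43 to 3.57, and 4.50 in 50 mg/kg replicate 1, against 3.51 to 3.78.

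The response at 50 mg/kg differed between day 183 and day 8, by limma's test of the difference, for Mepe (2.60), Dmp1 (2.07), LOC100912227 (3.42), Sparcl1 (3.24) and Emcn (2.69), all higher at day 183. It was lower at day 183 for Lox (−1.93), Slc13a5 (−2.06), Omd (−1.61) and Bglap (−1.83). Against day 29 it was higher for Hsd11b1 (1.88) and S100a9 (1.20), and against day 85 it was higher for Mppe1 (1.34) and lower for Patj (−1.31). At 3 mg/kg the response of Ylpm1 was higher at day 183 than at day 85 (1.52). At day 183 itself the arrays of S100a9, Mppe1, Patj and Ylpm1 at these doses overlapped those with vehicle.

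Between cell types of day 183, the response at 50 mg/kg was higher in osteocytes than in osteoblasts for LOC100912227 (4.10), Bnip3 (2.80) and Ndrg1 (2.61), and lower for Gng10 (−1.75) and Hipk1 (−1.33). It was higher in osteocytes than in lining cells for Ackr3 (2.81) and Mepe (4.00). The 3 mg/kg response of Mepe was higher in osteocytes than in lining cells (3.20), and that of Gng10 was lower than in osteoblasts (−1.43).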

How the results depend on the processing

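No paired analysis was possible because the labels give no replicate numbers and do not name the rat behind an array. No named gene that passed between groups of day 183 turned its direction in any setting. For 50 mg/kg against vehicle the count of 767 became 1651 with array weights and 1396 with the 15 arrays alone, and 530 (without 50 mg/kg replicate 5) to 770 with 1 array left out. Rises were 77.3% of the calls, 59.3% after quantile normalization or with the signal range covariate, and 64% with array weights. For 3 mg/kg the count of 0 became 3 (quantile normalization), 13 (array weights) and 1 (15 arrays alone), and 0 to 4 with 1 array left out. Between doses, 339 became 545, 994 and 707 in these settings, 223 without the arrays of high muscle signal, and 173 to 370 with 1 array left out. Differences of response at 50 mg/kg moved as follows. Against day 8, 429 became 1390 with array weights, and 266 to 488 with 1 array left out. Against day 29, 2 became 4 with no filter, median centring, mean of probe sets or the signal range covariate, 6 after quantile normalization, 41 with array weights, and 0 to 5 with 1 array left out. Against day 85, 6 became 11 with no filter, 68 after quantile normalization, 3 with median centring, 10 with mean of probe sets, 0 with array weights, 42 with the signal range covariate, 14 with trend and robust eBayes, and 1 to 11 with 1 array left out. The count for 3 mg/kg against day 8 (0) was 1 after quantile normalization or with array weights, and 0 to 1 with 1 array left out. The count against day 85 (1) was 0 with no filter, median centring, array weights or trend and robust eBayes, 4 with mean of probe sets, 2 with the signal range covariate, and 0 to 1 with 1 array left out. Against osteoblasts 1 became 2 after quantile normalization, and 1 to 5 with 1 array left out, and against lining cells 3 became 0 to 3. At 50 mg/kg these counts were 538 to 763 and 473 to 717 with 1 array left out. The setting without both muscle-rich arrays was chosen after seeing the data. The cause of these shifts was not tested.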

Other observations

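Mepe and Dmp1 lie in a cluster of secreted matrix protein genes whose neighbours did not all move with them, a set looked at after the values had been seen. In the gene order of the rat build GRCr8, Spp1, Mepe, Ibsp, Dmp1, Dspp and Sparcl1 follow one another with non-coding genes between some of them, and 7 of the 10 genes listed there were tested. At 50 mg/kg against vehicle Mepe rose by 2.82, Dmp1 by 2.17 and Sparcl1 by 3.30 on the log2 scale. Ibsp, bone sialoprotein, which lies between Mepe and Dmp1, differed by 0.21 (SE 0.22, adjusted p = 0.681 by limma). Dspp, a dentin matrix protein that lies between Dmp1 and Sparcl1, differed by −0.12 (adjusted p = 0.751), and Spp1 by −0.70 (adjusted p = 0.188).

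Megakaryocyte markers did not pass in osteocytes of day 183 at 50 mg/kg, with 0 of 10 in either direction, whereas 7 of them rose in osteoblasts and 6 in lining cells of the same day. Over all tested genes 5.00% rose in osteocytes, 5.26% in osteoblasts and 2.21% in lining cells, so 0 of 10 in osteocytes is near the share of all genes. The response was lower in osteocytes than in osteoblasts for 4 of the 10 and lower than in lining cells for 6, by limma's test of the difference. Over all tested genes these shares were 3.02% and 2.34%.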
